A study of Mus musculus with 12 samples.

Results

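The genes described here are 45 members of a list of astrocyte-enriched genes with mixed function, taken by symbol from the 55471 genes in the count table. They serve transport, metabolism, secretion, phagocytosis, tetraspanin organization and membrane signaling in homeostatic astrocytes, which are astrocytes that are not reacting to injury. All 45 were found and all 45 had enough reads to be tested. The study asked what the loss of Neuid, a neuron-enriched long non-coding RNA (Gm10419), does to the transcriptome of primary mouse hippocampal neurons. The cultures came from E17 embryos of wild-type CD1 mice, of both sexes, and received gapmers in lipid nanoparticles at day in vitro (DIV) 7. A gapmer is an antisense oligonucleotide that directs cleavage of its target RNA. The 6 control libraries had a control gapmer and the 6 Neuid KD libraries a gapmer against Neuid, and RNA for total RNA sequencing was taken at DIV 10. The labels do not state that replicates came from separate cultures, so p-values measure the spread between these libraries, which may be technical.

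Astrocytes take up transmitters and nutrients, store glycogen, supply neurons with lipids and precursors of glutathione, secrete protease inhibitors and engulf debris and synapses. Much of this program is switched on late in development, and it is dampened when astrocytes react to injury. In cultures of embryonic hippocampus, astrocytes arise from progenitors that remain among the neurons, so such a culture is not made of neurons alone.

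Library totals ranged from 18002585 to 30914714 counts in the controls and from 11152556 to 30573480 in Neuid KD. Mitochondrial genes took 18.6% ± 0.498 of the counts in the controls and 18.6% ± 0.888 in Neuid KD (SD, n = 6). Reads on 1796 chemosensory receptor genes, used as a measure of background, summed to between 26.3 and 671 CPM in the controls and to between 26.8 and 608 CPM in Neuid KD, where CPM are counts scaled to library size. Background was at least 100 CPM in 4 control and 3 Neuid KD libraries, and below it in the other 2 and 3. Neuid itself, at chr5:108367769-108378239 on the plus strand of GRCm38, ranged from 26.6 to 30.5 CPM in the controls (median 28.6) and from 6.19 to 9.36 CPM in Neuid KD (median 7.96). The groups did not overlap, and the KD mean was 27.7% of the control mean. Its log2 fold change was -1.81 with a standard error of 0.0845 (adjusted p = 1.32e-10), and an exact two-sided permutation test of the group labels gave p = 0.00216, the smallest that 6 against 6 libraries allow. Gm42517 overlaps Neuid on the opposite strand, and whether strand was used in counting is not given in the sources used here.

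Of the 45 members, 29 were upregulated in Neuid KD, which means an adjusted p below 0.05 and a log2 fold change above 0.5. Among all 19578 tested genes 477 were upregulated (2.44%). A single member, Slc7a11, was downregulated, against 155 of the tested genes (0.792%). The groups did not overlap for 30 members, all of them higher in Neuid KD, whereas 1135 of all tested genes (5.8%) had groups that did not overlap in either direction. The members had a median log2 fold change of 0.81 and 39 of them were above 0, beside a median of -0.03 and 44.4% above 0 over all tested genes. For 19 of the upregulated members the log2 fold change exceeded 1, and for the other 10 it lay between 0.5 and 1. In bulk RNA, more or fewer cells of a type and more or less RNA per cell cannot be told apart.

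Of the 15 members that were neither up- nor downregulated, 4 passed the adjusted p but not the fold threshold (Ttyh1, Cpe, Slc15a2 and Fjx1) and 11 did not pass the adjusted p. Summed over the 45 members, the level ranged from 2793 to 3310 CPM in the controls (median 3095) and from 4789 to 5305 CPM in Neuid KD (median 5108), a ratio of means of 1.65. Cpe and Gpm6b made up 38.6% and 16.9% of the control sum. Without this pair the remaining 43 members summed to between 1238 and 1477 CPM in the controls and to between 2643 and 3004 CPM in Neuid KD, a ratio of 2.08. The sums of the groups did not overlap in either case. Per kb of exon, member levels in the controls spanned 0.105 CPM for Etnppl to 458 CPM for Cpe.

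**Figure D1:**
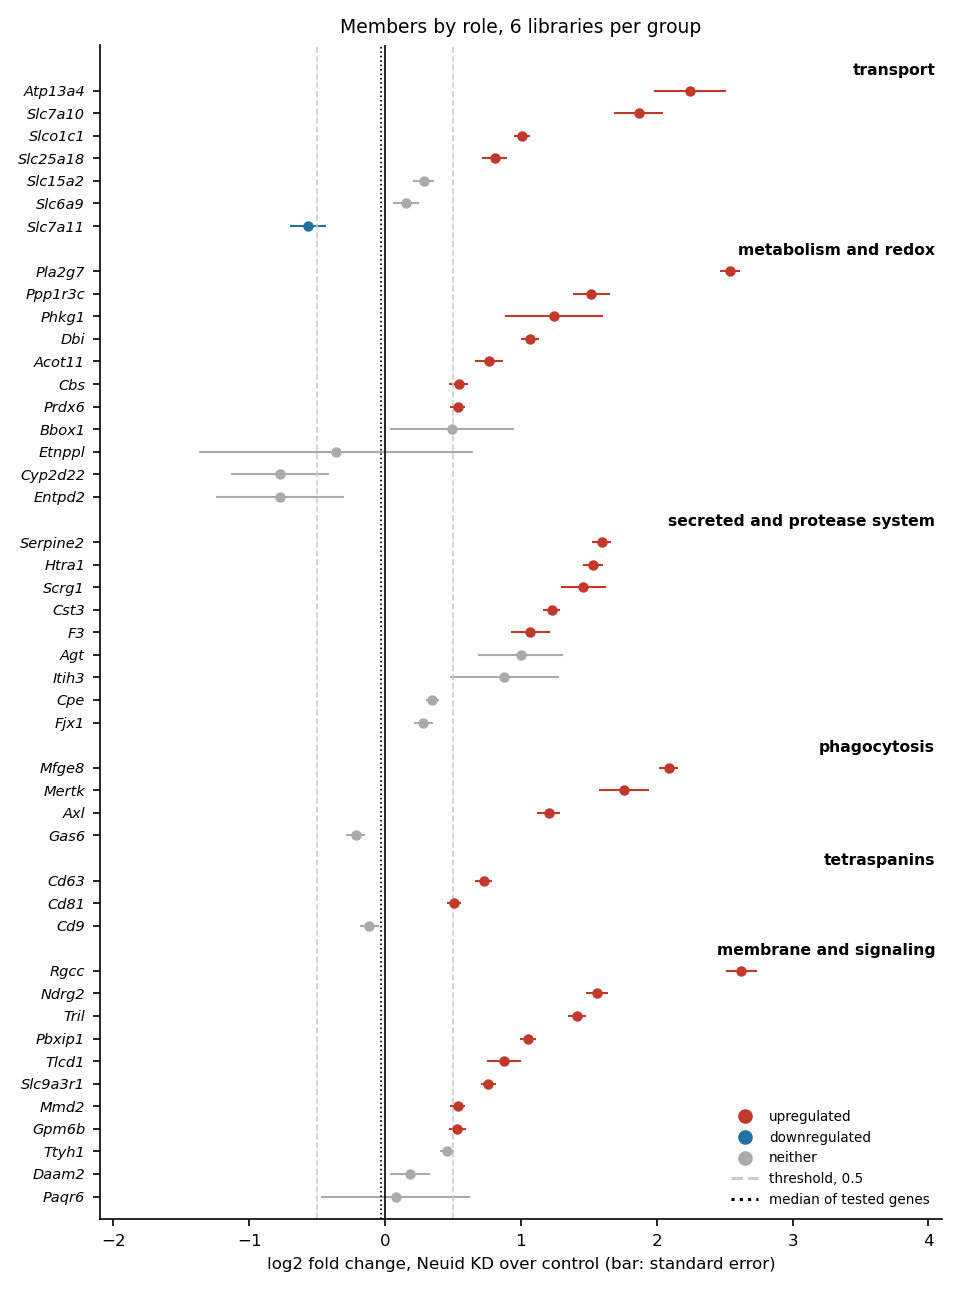
Log2 fold change of Neuid KD over control for the 45 members, grouped by role, with bars for the standard error derived from the edgeR F-test (6 libraries per group). Red points are the 29 upregulated members, the blue point is Slc7a11, grey points are the other 15, dashed lines mark the fold threshold of 0.5 and the dotted line the median of all tested genes, -0.03.

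Of the 7 transport genes, 4 were upregulated and 1 was downregulated, with a median log2 fold change of 0.81. Atp13a4, an ATPase of the P5 family, ranged from 0.698 to 2.80 CPM in the controls (median 2.03) and from 7.05 to 9.70 CPM in Neuid KD (median 8.26). Every KD library was above the highest control, while the controls split into values of 0.774 and 0.698 in controls 3 and 5, which had little background, and at least 1.69 in the other controls. Atp13a4 rose by 2.24 on the log2 scale with a standard error of 0.266 (adjusted p = 1.4e-05), 1.94 in the libraries with at least 100 CPM of background and 3.41 in those below. Slc7a10, an exchanger of small neutral amino acids such as D-serine and glycine, lay between 1.22 and 2.28 CPM in the controls (median 1.56) and between 4.6 and 7.41 CPM in Neuid KD (median 5.77). The ranges were apart, and the rise on the log2 scale was 1.87 (standard error 0.181, adjusted p = 1.29e-06). Slco1c1, a carrier of thyroid hormone and the most abundant transporter of the group per kb of exon (6.86 CPM per kb in the controls and 13.5 in Neuid KD), ranged from 31.2 to 40 CPM in the controls (median 35.5) and from 66.7 to 74.1 CPM in Neuid KD (median 69.1). The lowest KD library stood well above the highest control, and the log2 fold change was 1.01 with a standard error of 0.0579 (adjusted p = 1.48e-09). Slc25a18, the mitochondrial glutamate carrier, measured 6.17 to 8.21 CPM in the controls (median 6.66) and 9.58 to 13 CPM in Neuid KD (median 12.0). These ranges did not touch, and the rise on the log2 scale was 0.81 (standard error 0.0927, adjusted p = 9.7e-06).

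The downregulated transporter, Slc7a11, is the light chain of the cystine and glutamate exchanger that feeds glutathione synthesis. It ranged from 8.30 to 14.1 CPM in the controls (median 11.1) and from 5.23 to 8.63 CPM in Neuid KD (median 7.45). The groups overlapped, since control 1, at 8.30 CPM, was below the highest KD library, and control 6 was the highest of all 12. Its log2 fold change was -0.57 with a standard error of 0.131 (adjusted p = 0.00963). Without control 6 the log2 fold change was -0.48 and in the libraries with background below 100 CPM it was -0.41 (adjusted p = 0.0781, the highest of its 23 alternatives), so the call was lost in both cases. Slc6a9, a glycine transporter, had a log2 fold change of 0.15 and did not pass the adjusted p, and Slc15a2, a peptide transporter, passed it at 0.29 (adjusted p = 0.0235), under the fold threshold. Slc15a2 did not pass the adjusted p in 9 of 23 alternatives (up to 0.218), among them both background splits and the fits without control 2, control 4, KD 1, KD 3 or KD 6.

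Other genes of cysteine and glutathione metabolism were taken from a list of 19, all tested. In it 3 were upregulated and none downregulated, and the median log2 fold change was 0.14. The 3 were Cth, which makes cysteine from cystathionine (1.25), the glutathione transferase Gstm1 (0.98) and Ggt7 of the gamma-glutamyltransferase family (0.54). Txn1 (0.44) passed the adjusted p but not the fold threshold. Over the alternatives 2 to 3 genes of the list were upregulated, and without KD 1, 1 gene of the list was downregulated. Slc3a2, the heavy chain that partners Slc7a11 and the most abundant gene of the list, measured 130 ± 7.87 CPM in the controls and 140 ± 6.36 CPM in Neuid KD (SD, n = 6), a log2 fold change of 0.14 that did not pass the test.

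Metabolic and redox enzymes numbered 11, of which 7 were upregulated and none downregulated, with a median log2 fold change of 0.54. Pla2g7, a secreted phospholipase that inactivates platelet-activating factor, ranged from 23.7 to 30.5 CPM in the controls (median 27.6) and from 140 to 178 CPM in Neuid KD (median 157). The groups were far apart and the log2 fold change was 2.54 with a standard error of 0.0725 (adjusted p = 4.95e-13), which placed Pla2g7 at rank 4 of the 19578 tested genes by size of rise. Ppp1r3c, which brings protein phosphatase to glycogen, ranged from 8.40 to 16.4 CPM in the controls (median 14.8) and from 32.5 to 42.2 CPM in Neuid KD (median 36.9). Controls 1 and 6 were low, at 8.40 and 8.98 CPM, and no KD library came near the controls. Ppp1r3c rose by 1.52 on the log2 scale with a standard error of 0.138 (adjusted p = 5.97e-07). Dbi, the acyl-CoA-binding protein and the most abundant enzyme-group member per kb of exon (55.3 CPM per kb in the controls, 113 in Neuid KD), lay between 68.7 and 82.8 CPM in the controls (median 79.9) and between 134 and 180 CPM in Neuid KD (median 167). Control 1 was the low value, the ranges were separate, and the rise on the log2 scale was 1.07 (standard error 0.0682, adjusted p = 6.61e-09).

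Phkg1, the catalytic subunit of phosphorylase kinase, had the highest adjusted p of the upregulated members. It ranged from 0.372 to 3.23 CPM in the controls (median 1.48) and from 3.00 to 4.72 CPM in Neuid KD (median 3.68). Only 4 of 6 KD libraries exceeded the highest control, and control 5, with little background, was the lowest. The log2 fold change was 1.24 with a standard error of 0.358 (adjusted p = 0.0378), 0.90 in the libraries with at least 100 CPM of background and 2.5 in the others. The call was lost in 11 of 23 alternatives, with adjusted p up to 0.0969. Among these were the fits that left out control 2 (log2 fold change 1.30), control 3 (1.12), control 6 (1.15) or a single KD library, from KD 1 to KD 6 in turn (1.14, 1.30, 1.18, 1.27, 1.25 and 1.20). Phkg1 shares its locus with Chchd2 on the same strand (log2 fold change 0.06) and with Sumf2 on the opposite strand (0.12), so the assignment of its reads is uncertain.

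Smaller rises were measured for the acyl-CoA thioesterase Acot11 (log2 fold change 0.77), for Cbs, which makes cystathionine (0.54), and for the peroxiredoxin Prdx6 (0.54). Cbs and Prdx6 lay close to the fold threshold. Cbs was at 0.48 without KD 1 and 0.47 without KD 6, and Prdx6 was at 0.50 without control 1, 0.49 without KD 1 and 0.50 without KD 3, in each case just under 0.5 by the unrounded value. In the libraries with background below 100 CPM Cbs was at 0.45. With upper-quartile scaling Cbs and Prdx6 were both at 0.48. The remaining enzymes, Bbox1 of carnitine synthesis, the phospho-lyase Etnppl, the cytochrome Cyp2d22 and the ecto-ATPase Entpd2, had group medians between 0.451 and 1.46 CPM. Their log2 fold changes were 0.49, -0.36, -0.77 and -0.77, with standard errors of 0.362 to 1.01, and none of them passed the adjusted p. Entpd2 was at -1.61 in the libraries with at least 100 CPM of background and at -0.15 in those below, and passed the adjusted p in neither. Etnppl was at 0 CPM in controls 3 and 5 and at 2.27 CPM in control 1, and in Neuid KD at 1.12 to 1.26 CPM in KD 1, 5 and 6 and at 0.0467 to 0.19 CPM in KD 2, 3 and 4. Controls 3 and 5 and KD 2, 3 and 4 were the libraries with background below 100 CPM, and its part in these values was not tested. In the glycogen pathway, 21 listed genes were tested and 3 were upregulated, with a median log2 fold change of 0.07. Over the alternatives 1 to 3 listed genes were upregulated, the 1 with upper-quartile scaling. The 3 upregulated genes were the phosphorylase kinase subunits Phka1 (1.11) and Phkb (0.54) and Ugp2, which makes the glucose donor of glycogen (0.51). Pygb, the brain glycogen phosphorylase and the most abundant gene of that list, measured 167 ± 9.94 CPM in the controls and 216 ± 10.4 CPM in Neuid KD (SD, n = 6), a log2 fold change of 0.41 that passed the adjusted p and stayed under the fold threshold.

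**Figure D2:**
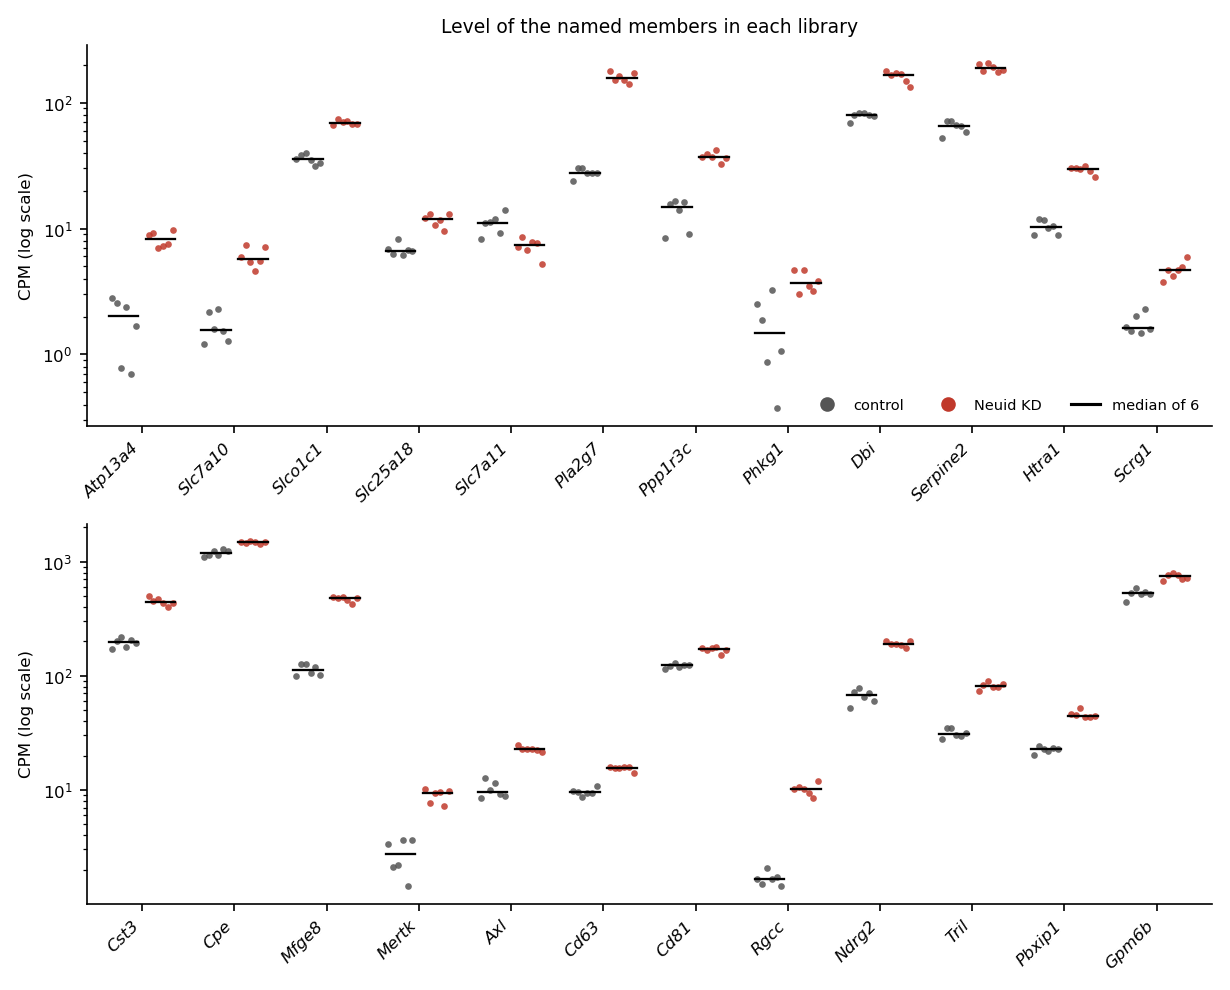
Level of the 24 named members in each library, in CPM on a log axis, with grey points for controls, red points for Neuid KD and a black line at the median of the 6 libraries. Slc7a11 lies lower in Neuid KD with overlapping groups, Phkg1 overlaps too, and the KD libraries of the other members shown lie above all controls.

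Secreted proteins and protease regulators made up 9 members, of which 5 were upregulated, none was downregulated and the median log2 fold change was 1.07. Serpine2, a secreted inhibitor of thrombin and plasminogen activators, ranged from 52.6 to 71.4 CPM in the controls (median 65.8) and from 174 to 207 CPM in Neuid KD (median 187). No library of one group entered the range of the other, and the rise on the log2 scale was 1.59 (standard error 0.0720, adjusted p = 9.02e-11). Htra1, a secreted serine protease, went from 8.93 to 11.8 CPM across the controls (median 10.4) and from 25.7 to 31.3 CPM across Neuid KD (median 29.9). KD 6 was the lowest KD library and was still above all controls. Htra1 rose by 1.53 on the log2 scale with a standard error of 0.0747 (adjusted p = 2.01e-10). Scrg1, a small secreted protein, lay between 1.47 and 2.28 CPM in the controls (median 1.62) and between 3.79 and 5.99 CPM in Neuid KD (median 4.67), again with separate ranges. Its log2 fold change was 1.46 with a standard error of 0.166 (adjusted p = 8.73e-06), 1.71 in libraries with at least 100 CPM of background and 1.08 in the others.

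Cst3, the cysteine protease inhibitor cystatin C, was at 155 CPM per kb of exon in the controls and at 354 in Neuid KD. By library it ranged from 173 to 218 CPM in the controls (median 199) and from 403 to 499 CPM in Neuid KD (median 442). Control 1 was lowest and KD 1 highest, and the groups did not overlap. The log2 fold change was 1.23 with a standard error of 0.0639 (adjusted p = 4.54e-10). Cpe, carboxypeptidase E, which trims peptide hormones in neurons as well as astrocytes, had the highest level per kb of all members (458 CPM per kb in the controls, 569 in Neuid KD). It ranged from 1108 to 1283 CPM in the controls (median 1190) and from 1438 to 1527 CPM in Neuid KD (median 1486). Although these ranges were separate, the log2 fold change of 0.35 with a standard error of 0.0466 (adjusted p = 5.41e-05, and 0.368 without a filter) was under the fold threshold.

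Tissue factor, F3, was the other upregulated member of the secreted group (log2 fold change 1.07). Angiotensinogen, Agt, had a log2 fold change of 1.00 with an adjusted p of 0.0584 and passed in 6 of 23 alternatives, among them the fit without control 1 (1.16). Its adjusted p went up to 0.426 over the alternatives, and its medians were 0.969 CPM in the controls and 1.85 CPM in Neuid KD. Itih3 (0.88) and Fjx1 (0.28) were not called either, and Fjx1, which passed the adjusted p at 0.0171, did not pass it in 11 of 23 alternatives (up to 0.576), among them the fits without control 2, 3 or 6 or without KD 1, 3, 4, 5 or 6. In the libraries with background below 100 CPM Fjx1 was at 0.09 (adjusted p = 0.576), and in the others at 0.40 (adjusted p = 0.00499). Fgfr2, which overlaps Htra1 on the opposite strand, had a log2 fold change of 1.04 and was upregulated too, with means of 23.5 CPM in the controls and 46.9 CPM in Neuid KD, so how reads were shared between these genes is uncertain. In a list of 15 other serpin, plasmin and angiotensin genes, 12 were tested. None was called by edgeR in either direction, 2 were lower at an unadjusted p below 0.05, and the median log2 fold change was -0.40. Of the 2, Serpini1, the neuronal serpin neuroserpin, passed the adjusted p (0.000259) with a log2 fold change of -0.35, under the fold threshold. The summed level of the list was 242 to 269 CPM in the controls and 206 to 236 CPM in Neuid KD, lower in all 6 KD libraries than in any control. At most 1 of them was called under any alternative.

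The phagocytosis group consists of the receptor tyrosine kinases Mertk and Axl, their ligand Gas6, and Mfge8, which bridges phosphatidylserine on debris to integrins. Of these 4, 3 were upregulated and the median log2 fold change was 1.48. Mfge8 ranged from 101 to 128 CPM in the controls (median 113) and from 423 to 495 CPM in Neuid KD (median 483). KD 5 was the lowest KD library and was still far above every control. The log2 fold change was 2.09 with a standard error of 0.0699 (adjusted p = 2.44e-12), and Mfge8 was also the most abundant of the group, at 24.3 CPM per kb in the controls and 101 in Neuid KD. Mertk ranged from 1.44 to 3.65 CPM in the controls (median 2.76) and from 7.27 to 10.2 CPM in Neuid KD (median 9.47). Its controls were spread widely but remained below all KD libraries, and the rise on the log2 scale was 1.76 (standard error 0.186, adjusted p = 3.92e-06). Axl lay between 8.56 and 12.8 CPM in the controls (median 9.56) and between 21.3 and 24.7 CPM in Neuid KD (median 22.9). The KD libraries were tightly grouped above the controls, and the rise on the log2 scale was 1.20 (standard error 0.0837, adjusted p = 2.12e-08). Gas6, in contrast, ranged from 43.1 to 55.6 CPM in the controls and from 37.6 to 43.9 CPM in Neuid KD with overlap, a log2 fold change of -0.22 (adjusted p = 0.0634) that did not pass the test. Over the 23 alternatives its log2 fold change was -0.32 to -0.17, under the fold threshold in each, and its adjusted p ran from 7.32e-06 to 0.5.

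Among 15 other genes of phagocytic uptake, all tested, 5 were upregulated and none downregulated, and the median log2 fold change was 0.16. They were the engulfment adaptor Gulp1 (1.78), the guanine nucleotide exchange factor Dock1 (1.62), the lipid exporter Abca1 (1.33), the integrin subunit Itgb5 (1.22) and the engulfment receptor Megf10 (0.66). Itgav (0.43) and Elmo1 (-0.33) passed the adjusted p but not the fold threshold. The related receptor Tyro3 and the ligand Pros1 had log2 fold changes of 0.05 and 0.08. Lrp1, the most abundant gene of that list, measured 496 ± 30.6 CPM in the controls and 611 ± 106 CPM in Neuid KD (SD, n = 6), with a log2 fold change of 0.34 that passed neither the adjusted p (0.0541, and 7.08e-09 to 0.396 over the 23 alternatives) nor the fold threshold. KD 1 stood apart, with 396 CPM of Lrp1, below the lowest control (454 CPM), and 1251 CPM summed over the list, against 1517 to 1635 CPM in the other KD libraries and 1164 to 1305 CPM in the controls.

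Sequences upstream of the start sites of these 4 phagocytosis genes are shown because 3 of them rose together and 1 did not, a choice made after their values were seen. The sequences are from RefSeq, build GRCm38.p6, where 40 of the 45 members had a promoter entry of 300 bases, and Cpe, Cyp2d22, Fjx1, Prdx6 and Scrg1 had none. Each holds the 250 bases before the start, 5' to 3' on the strand of the gene, and none of them overlaps a gene in GENCODE M21. They lie at chr7:79149061-79149310 (minus strand), chr2:128698665-128698914 (plus strand), chr7:25788734-25788983 (minus strand) and chr8:13494536-13494785 (minus strand). Capitals mark the 1 match found in them, to the letters TGGGAA of RBPJ, here read on the other strand, which begins 83 bases before the start of Mfge8.
Mfge8: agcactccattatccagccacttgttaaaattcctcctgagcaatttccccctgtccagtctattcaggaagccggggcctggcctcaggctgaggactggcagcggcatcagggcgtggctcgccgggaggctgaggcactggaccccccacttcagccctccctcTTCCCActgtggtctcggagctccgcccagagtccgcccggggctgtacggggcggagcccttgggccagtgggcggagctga
Mertk: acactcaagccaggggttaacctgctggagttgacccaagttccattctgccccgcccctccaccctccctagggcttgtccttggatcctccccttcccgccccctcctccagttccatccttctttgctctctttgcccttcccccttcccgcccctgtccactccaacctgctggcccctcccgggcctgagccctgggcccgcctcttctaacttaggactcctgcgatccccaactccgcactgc
Axl: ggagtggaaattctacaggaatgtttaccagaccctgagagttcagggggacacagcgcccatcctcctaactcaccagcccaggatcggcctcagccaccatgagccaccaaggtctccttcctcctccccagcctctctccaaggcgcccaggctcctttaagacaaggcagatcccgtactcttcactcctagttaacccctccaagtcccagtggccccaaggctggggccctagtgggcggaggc
Gas6: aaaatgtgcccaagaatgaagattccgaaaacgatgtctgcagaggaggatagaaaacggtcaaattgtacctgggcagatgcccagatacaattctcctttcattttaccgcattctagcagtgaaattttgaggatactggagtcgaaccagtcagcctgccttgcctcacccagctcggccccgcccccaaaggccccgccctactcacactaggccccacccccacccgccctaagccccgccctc

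The search covered 6 motifs on both strands of the 300 bases. RBPJ letters, TGGGAA, were in 11 of 40 member promoters (27.5%) and in 23.7% of the promoters of 12703 tested genes. The NFI half-site TTGGCA was in 6 members (15%) against 11.9%, and the hypoxia letters ACGTG in 8 (20%) against 24.4%. NRF2 letters, TGACNNNGC, were in 4 members (10%) against 14.2%, STAT letters, TTCCNGGAA, in 1 (2.5%) against 1.2%, and the SOX letters ACAATGG in 0 of 40 against 2.15%. None of the 37 matches in members overlapped a match to another motif. Median GC content was 61.8% in member promoters and 60.0% in those of all tested genes. The shares are descriptions of these letters in these windows.

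Tetraspanins organize membrane domains and mark extracellular vesicles. Of the 3 in the list, Cd63 ranged from 8.71 to 10.8 CPM in the controls (median 9.50) and from 14.1 to 16 CPM in Neuid KD (median 15.7). KD 6 was the low KD library and the groups did not overlap, and the rise on the log2 scale was 0.73 (standard error 0.0623, adjusted p = 2.81e-07). Cd81, the most abundant per kb of exon (42.6 CPM per kb in the controls and 59.1 in Neuid KD), lay between 115 and 130 CPM in the controls (median 123) and between 152 and 179 CPM in Neuid KD (median 172). Ranges were separate, but the rise of 0.51 on the log2 scale (standard error 0.0501, adjusted p = 1.71e-06) was so close to the threshold that it was at or under 0.5 in 15 of 23 alternatives. These included leaving out controls 1, 2 or 4 (0.49, 0.50 and 0.50) and KD 1, 2, 3, 4 or 6 (0.46, 0.50, 0.49, 0.48 and 0.48). Cd9 had a log2 fold change of -0.12 and did not pass the test. Cd63 and Cd9 each have a named pseudogene that could take some of their reads, as does Prdx6. Of 20 other tetraspanins, 18 were tested, and 1 was upregulated, Tspan12 (0.62), with a median log2 fold change of 0.01. Tspan12 was not called in the libraries with background below 100 CPM, and the DESeq2 fits without and with RUVs factors each called 1 gene of that list down. The adjusted p alone was passed by 6 genes with higher and 1 with lower levels, Tspan12 among the 6. Tspan7, the most abundant of them, measured 228 ± 14.2 CPM in the controls and 298 ± 16.1 CPM in Neuid KD (SD, n = 6), a log2 fold change of 0.42 under the threshold.

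Membrane and signaling genes formed a group of 11, of which 8 were upregulated and none downregulated, with a median log2 fold change of 0.76. Rgcc, a regulator of the cell cycle, had the largest rise of all members and was at rank 3 of the 19578 tested genes. It ranged from 1.42 to 2.05 CPM in the controls (median 1.65) and from 8.50 to 11.9 CPM in Neuid KD (median 10.1). The gap between the groups exceeded either range, and the log2 fold change was 2.62 with a standard error of 0.115 (adjusted p = 6.65e-11). Ndrg2, a cytoplasmic protein used as an astrocyte marker, ranged from 52.3 to 78.0 CPM in the controls (median 67.5) and from 174 to 203 CPM in Neuid KD (median 190). Control 1 was the lowest, KD 1 the highest, and the log2 fold change was 1.56 with a standard error of 0.0800 (adjusted p = 3.94e-10). Tril, a membrane protein with leucine-rich repeats that assists Toll-like receptors, measured 27.8 to 35.2 CPM in the controls (median 30.9) and 74.2 to 90.5 CPM in Neuid KD (median 82.0). The groups were apart, and the rise on the log2 scale was 1.41 (standard error 0.0667, adjusted p = 1.52e-10).

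Pbxip1, a binding partner of PBX transcription factors, ranged from 20.3 to 24.3 CPM in the controls (median 22.9) and from 43.4 to 52.2 CPM in Neuid KD (median 44.8). KD 3 stood above the other KD libraries and all of them were above the controls. Its log2 fold change was 1.05 with a standard error of 0.0568 (adjusted p = 6.69e-10). Gpm6b, a proteolipid of glia and neurons and the most abundant of the group per kb of exon (93.6 CPM per kb in the controls, 132 in Neuid KD), ranged from 447 to 585 CPM in the controls (median 528) and from 678 to 802 CPM in Neuid KD (median 744). Control 1 was low, the groups did not overlap, and the log2 fold change was 0.53 with a standard error of 0.0619 (adjusted p = 1.11e-05). It fell short of the threshold without control 1 (0.49) and in the libraries with background below 100 CPM (0.47). The same held with upper-quartile scaling (0.48) and in the DESeq2 test with 2 RUVs factors (0.49). Tlcd1 (0.88), the scaffold protein Slc9a3r1 (0.76) and Mmd2 (0.54) were upregulated as well. Mmd2 was not upregulated in the libraries with low background (0.40) or with upper-quartile scaling (0.48). Without control 1, KD 1 or KD 6 Mmd2 was only just below the threshold (0.50 each). Ttyh1, of the tweety family, had groups that did not overlap, but its log2 fold change, 0.46 (adjusted p = 7.99e-06), missed the threshold. The formin Daam2 (0.18) and the receptor Paqr6 (0.08) did not pass the test.

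Variation between libraries of a group depended on the level. The 24 members with at least 10 CPM in both groups had coefficients of variation of 4.15% to 27.6% in the controls (median 8.74%) and of 1.53% to 12.6% in Neuid KD (median 6.42%). For the 7 members below 2 CPM in both groups they were 29.0% to 107% in the controls (median 41.7%) and 25.3% to 91.3% in Neuid KD (median 40.8%). Control 1 was the lowest control for 21 members and control 3 the highest for 15, while KD 5 was the lowest KD library for 20 members and KD 1 the highest for 17. Control 1 had the highest background of the controls and control 3 the lowest, and KD 1 had the highest of the KD libraries. Any part of background in these extremes was not tested. Of the 45 members, 28 were upregulated when libraries with at least 100 CPM of background were compared, and of the 44 members tested in the libraries below it, all but Etnppl, 26 were upregulated.

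Members were spread over 16 chromosomes, with 6 on chromosome 7, and the closest pair, Paqr6 and Pbxip1, lay 1068165 bases apart on chromosome 3. An annotated gene overlapped 17 members, for 5 of them on the same strand. Of the 17 overlapping genes that could be tested, Fgfr2 was called and the other 16 were not. Among the latter were Lrp3 at Slc7a10 (log2 fold change -0.05), Atp6v1e1 at Slc25a18 (0.06) and Npdc1 at Entpd2 (0.03).

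Markers of astrocytes outside the 45 members were checked against the name of the list. Of 24 such genes 23 were tested, 17 were upregulated and none downregulated, and the median log2 fold change was 1.22. Their sum ranged from 3104 to 3730 CPM in the controls (median 3453) and from 6272 to 7158 CPM in Neuid KD (median 6816), without overlap. Slc1a2, the main glutamate transporter and the most abundant of them, measured 1194 ± 97.4 CPM in the controls and 1804 ± 203 CPM in Neuid KD (SD, n = 6), and it was upregulated with a log2 fold change of 0.63. Astrocyte transcripts were thus present in both groups, and their summed level was higher in Neuid KD, as was that of the members. Among 18 markers of reactive astrocytes, 15 were tested, 2 were upregulated (Osmr, 1.22, and Gfap, 0.59, which is also in the astrocyte list) and 5 downregulated (Gbp2, -3.34, S1pr3, -1.83, Psmb8, -1.60, Cp, -0.76, and Vim, -0.74). Between 4 and 8 were downregulated over the alternatives, the 8 in the libraries with background below 100 CPM, and 2 were upregulated in each. Their sum, led by Vim, ranged from 839 to 899 CPM in the controls (mean 870) and from 657 to 689 CPM in Neuid KD (mean 675). Vim alone had a mean of 559 CPM in the controls and 326 CPM in Neuid KD, a larger fall than that of the sum. By their means, the other reactive markers together were thus not lower in Neuid KD. Hspb1 was at a median of 0 CPM.

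Pan-neuronal markers had the highest sum of the cell type lists in both groups. The 18 pan-neuronal genes summed to between 10140 and 11683 CPM in the controls and to between 9737 and 11541 CPM in Neuid KD, and their median log2 fold change was -0.01. Map2 led them, at 2646 ± 159 CPM and 2564 ± 240 CPM (SD, n = 6). None of the 18 was called by edgeR or DESeq2 or under any other alternative, and 4 had an unadjusted p below 0.05, 2 in each direction. Of these 4, Nefm (log2 fold change 0.21) and Elavl4 (-0.21) passed the adjusted p, at 0.0242 and 0.0161, and missed the fold threshold, and they did not pass the adjusted p in 11 and 8 of 23 alternatives. The 10 excitatory markers, led by Camk2a, summed to between 1778 and 2071 CPM in the controls (mean 1940) and to between 2001 and 2234 CPM in Neuid KD (mean 2140), with overlap. The 10 inhibitory markers, led by Reln, summed to between 343 and 393 CPM in the controls (mean 363) and to between 282 and 335 CPM in Neuid KD (mean 324), so that every KD library was below every control. None of these was called in any fit, and 5 excitatory and 3 inhibitory markers had an unadjusted p below 0.05. The adjusted p was passed by 3 excitatory markers, Camk2a (log2 fold change 0.38), Slc17a6 (-0.34) and Bcl11b (-0.29), each under the fold threshold and without overlap between the groups, and by no inhibitory marker. Any part of neurons in the result was not tested.

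Progenitor and oligodendrocyte lineage markers moved partly with the members. Of 12 radial glia and progenitor genes 6 were upregulated and 1, Vim, was downregulated, and the sum ranged from 1348 to 1564 CPM in the controls and from 2007 to 2311 CPM in Neuid KD. The adjusted p alone was passed by 7 of these genes with higher and 2 with lower levels, and 5 to 6 were upregulated over the alternatives. Vim led the list in the controls, and Slc1a3, the most abundant in Neuid KD at 804 ± 44.9 CPM against 346 ± 37.4 CPM in the controls (SD, n = 6), is also an astrocyte marker. Of 10 oligodendrocyte precursor genes 4 were upregulated, namely Olig2 (1.67), Olig1 (1.47), Ptprz1 (1.36) and Lhfpl3 (0.54), of which Olig1, Olig2 and Ptprz1 are also expressed in progenitors. Over the alternatives 3 to 4 precursor genes were upregulated. The precursor list summed to 512 to 664 CPM in the controls and to 1295 to 1508 CPM in Neuid KD, led by Ptprz1. The defining markers Pdgfra (log2 fold change 0.44), Cspg4 (0.16) and Sox10 (0.09) were not called. Of the 10 genes, 5 passed the adjusted p and 6 had an unadjusted p below 0.05, all of these higher in Neuid KD. Of 10 genes of myelinating oligodendrocytes 5 were tested and Mbp was downregulated (-0.66, not in the libraries with at least 100 CPM of background), with sums of 27.2 to 37.3 CPM in the controls and 23.3 to 36.6 CPM in Neuid KD, led by Cnp. The part of progenitors and of the oligodendrocyte lineage in the result was not tested.

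Markers of other cell types were low, and none was called by edgeR or by DESeq2 without further factors or had an unadjusted p below 0.05 in edgeR. No microglial gene was called in any of the alternatives, whereas 1 endothelial gene was called down with background as a covariate and 1 ependymal or choroid plexus gene up in the libraries with at least 100 CPM of background. Of 12 microglial genes 7 were tested, with sums of 16.6 to 26.5 CPM in the controls and 14.1 to 26.2 CPM in Neuid KD, and P2ry12 and Tmem119 had means of at most 0.263 CPM in either group. Endothelial genes, 6 of 9 tested, summed to 6.98 to 27.8 CPM and 7.05 to 25 CPM, led by Kdr, with Cldn5 at means of 0.129 and 0.0695 CPM. The 12 fibroblast and mural genes summed to 41.1 to 78.2 CPM and 37.9 to 65.8 CPM, led by Dcn. Of these, 1 was called up and 2 down both in the DESeq2 fit with RUVs factors and with background as a covariate, 1 up in the libraries with background below 100 CPM and 1 down in those at or above it. Ependymal and choroid plexus genes, 7 of 9 tested, summed to 4.88 to 15.0 CPM and 3.88 to 15.5 CPM, led by Ttr in Neuid KD, with Tmem212 and Kcnj13 at a median of 0 CPM. In the endothelial and the fibroblast list the highest sums were in control 1, control 4 and KD 1, the libraries with the most background. Each of these sums overlapped between the groups.

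**Figure D3:**
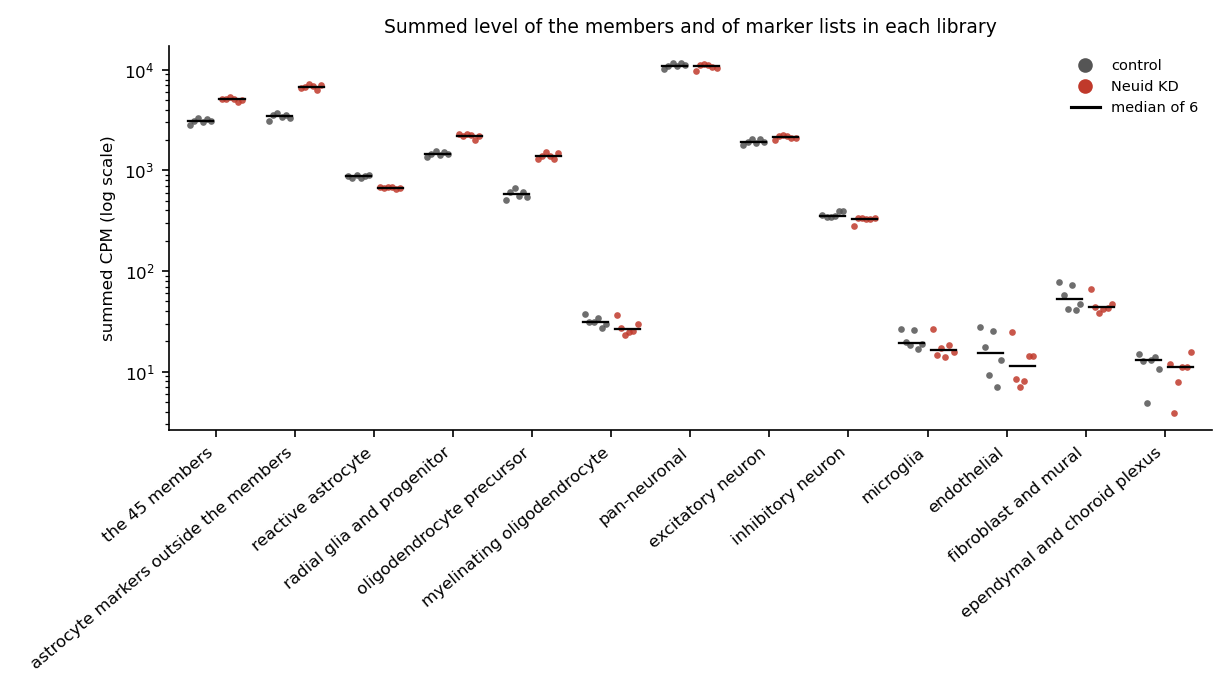
Summed CPM of the 45 members and of 12 cell type marker lists in each library, on a log axis, with grey points for controls, red points for Neuid KD and a black line at the median of the 6 libraries. The members, the other astrocyte markers, the progenitor list and the oligodendrocyte precursor list were higher in all 6 KD libraries than in any control. The reactive and the inhibitory neuron sums were lower in all 6, and the pan-neuronal sums overlapped. In the reactive list the mean of Vim alone fell by more than the mean of the sum.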

How the data were processed

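Counts per gene were deposited by the authors as raw counts for 12 libraries and 55471 genes. The methods of the authors name the SMARTer Stranded Total RNA-Seq Pico kit, single reads, bcl2fastq, STAR alignment to mm10 (GRCm38) and featureCounts, while the strand setting and the annotation release are not given in the sources used here. Genes were matched to GENCODE M21 for symbols, positions and exon lengths. In edgeR 4.0.16 (R 4.3.3), genes were kept by filterByExpr, scaled by TMM and compared between groups by a quasi-likelihood F-test. P-values were adjusted by Benjamini-Hochberg over all 19578 tested genes, and calls needed an adjusted p below 0.05 and a log2 fold change beyond 0.5. The standard errors of the edgeR fits were derived as the absolute log2 fold change divided by the square root of the F statistic. CPM use TMM-scaled library sizes, and CPM per kb divide by the exon length. No 2 libraries of a group had the same counts within sampling noise.

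The members and lists were chosen with earlier results of these data known. Named in full are, in each role group, the up to 4 called members with the largest absolute log2 fold change, the member with the highest level per kb and every downregulated member. For pathway lists the called genes, up to 4 by absolute log2 fold change, are named by rule, and for cell type lists the most abundant gene. Fgfr2, the lowest markers, the defining precursor markers, the called genes of cell type lists, Megf10, Tyro3, Pros1, list genes that passed the adjusted p but not the fold threshold and the most abundant pathway genes were added after their values were seen. Alternatives, 23 for most members, were DESeq2 1.42.0 size factors, upper-quartile scaling, the DESeq2 test without and with 2 RUVs factors, no filter, at least 1 CPM in at least 6 libraries, background as a covariate, libraries with at least or under 100 CPM of background alone, GC and length offsets, a replicate block and leaving out each of the 12 libraries, beside other fold thresholds. The fits were tested on simulated data. Some genes of the lists are not reported here. Tables and figures used Python 3.11.15, pandas 2.3.3, scipy 1.17.1 and matplotlib 3.10.9.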

Additional observations from a re-analysis of the deposited data

Results flagged for a closer look

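Among 92 groups of 6 libraries (the members and Neuid in each condition), 5 held a library far from the others, and chance alone gives about 5% of groups. Slc25a18 was 8.21 CPM in control 3 and 6.17 to 6.92 CPM in the other controls. Cbs was 15.0 CPM in control 2 and 13.1 to 13.6 CPM in the others. Dbi was 68.7 CPM in control 1 and 78.6 to 82.8 CPM in the others. In Neuid KD, Cd63 was 14.1 CPM in KD 6 and 15.6 to 16 CPM elsewhere, and Pbxip1 was 52.2 CPM in KD 3 and 43.4 to 45.9 CPM elsewhere. The 5 values came from 5 libraries, and for all 5 genes the KD libraries were above the controls with these values included.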

How the results depend on the processing

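Over the 23 alternatives, 23 (upper-quartile scaling) to 30 (background as a covariate) members were upregulated, and 23 members were upregulated in all 23 alternatives. Leaving out 1 library gave 24 to 29 upregulated and 0 to 1 downregulated members, the 24 without KD 1, and a log2 fold change of -1.88 to -1.75 for Neuid. With a fold threshold of 1 the counts were 19 up and 0 down, with 0.3 31 up, and with none 33 up. In libraries with under 100 CPM of background 0 members were downregulated. Cd81, Phkg1, Prdx6, Cbs, Mmd2 and Gpm6b lost the call in some alternatives, and Agt and Itih3 gained it in some. The median log2 fold change of all tested genes was -0.09 with upper-quartile scaling and -0.14 without a filter, where 48419 genes were tested, against -0.03. Of all tested genes, 155 were downregulated in the main fit and 269 without KD 1. The count was 298 with 2 RUVs factors, 294 with background as a covariate and 111 in the libraries with at least 100 CPM of background.

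The sign changed only for members that were not called. Slc6a9 was at -0.13 in libraries with under 100 CPM of background. Etnppl was at 0.83 with 2 RUVs factors and 0.63 with background as a covariate, and between -0.71 and 0.19 when 1 library was left out. Paqr6 was at -0.0062 with the replicate block and between -0.29 and 0.33 when 1 library was left out. The cause was not tested. The labels do not say whether the replicate numbers pair the libraries. Deviations of same-numbered libraries correlated at 0.77, -0.45, 0.75, -0.64, -0.55 and 0.01. Background was similar within pairs 1 and 3 and differed within pairs 2, 4 and 5, so these values cannot decide whether libraries were paired. With the number as a block 29 members were up and 1 down. The 7 members below 2 CPM had a median coefficient of variation of 41.7% in the controls, and the culture or batch behind each library was not given.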
